A study of Caenorhabditis elegans with 12 samples.

Results

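Small RNAs were profiled in a C. elegans strain that lacks 1 binding site of ATTF-6, a DNA-binding protein with AT-hook motifs, on chromosome IV. The site is called peak 1 and the strain ΔPeak1. The comparison took the 2 ΔPeak1 libraries and the 2 control libraries of the deletion experiment, out of 12 libraries in the series, and used every feature of the deposited tables in every class. A feature is a gene or small RNA locus together with the class of small RNA counted there. In all, 56523 features had a count in at least 1 of the 4 libraries. Control animals carried attf-6::3xflag on chromosome I, that is, ATTF-6 with a FLAG tag at its own locus. ΔPeak1 animals carried the same tagged allele and the peak 1 deletion, and ΔPeak2 animals, used here as a second edited line, carried the tagged allele and the deletion of another ATTF-6 site on chromosome IV. None of these groups was treated. Whole animals were grown at 20 °C on OP50 bacteria and harvested as adults, and small RNAs were treated with the polyphosphatase PIR-1, so that those with a 5′ triphosphate, such as siRNAs, were cloned along with those with a 5′ monophosphate, such as piRNAs and miRNAs. Each genotype is given as a single strain, so the deletion and any other difference between these lines cannot be told apart. The labels do not say whether the 2 libraries of a group came from separate cultures, so p-values measure the spread between these libraries, which may be technical.

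In the worm germ line, the Piwi-class Argonaute PRG-1 carries piRNAs, and together they guard the genome against transposons and other foreign sequences. Type I piRNA genes of C. elegans lie mostly in clusters on chromosome IV, each with its own small promoter, and ATTF-6 binds within these clusters. A transcript found by a piRNA is copied by RNA-dependent RNA polymerases into siRNAs that lie antisense to it, and worm-specific Argonautes (WAGOs) carry these siRNAs. Another Argonaute, CSR-1, carries siRNAs against expressed germline genes. The 4 libraries held 15454564 to 19949905 counts in all and 43060 to 44958 features with a count. The deletion was made to ask whether an ATTF-6 site acts on piRNA genes at a distance.

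The deleted interval was IV:13709294-13709476, 183 nt, as the labels give it. It was made with a pair of Cas9 guide RNAs, and the edited allele was followed with a pair of primers. The spacers and primers are shown because they define the allele. Capitals mark the 10 bases of each spacer nearest to the end where Cas9 reads the PAM. The genomic positions of these oligonucleotides were not determined here.
guide RNA 1 spacer: uaugaguugcUGCUUUUUUU
guide RNA 2 spacer: gaacuuuuuaUCUGAUGAAU
sense genotyping primer: catcttaaatcaggaagaagtcgaaatg
antisense genotyping primer: gttgtgtggtagaaatatttacttccg

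The guides were rich in A and U, with 6 and 5 G or C bases among 20. In the WBcel235 annotation the interval overlapped 1 gene, F52D4.1 (WBGene00045391), a noncoding RNA gene on the plus strand at IV:13709270-13709428. The deletion takes 135 of its 159 nt and leaves 24 nt at its 5′ end. No annotated piRNA gene lies inside the interval. The nearest protein-coding genes were tlp-1, which encodes a zinc-finger protein that acts in tail tip development, 5212 nt away at lower coordinates, and C47A4.1, 6430 nt away at higher coordinates.

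Fragments of F52D4.1 fell in ΔPeak1. Values here are normalised counts, the counts of a library divided by the library constant of the authors and scaled up by the same factor in every library. The control libraries held 24.4 and 30.7 normalised counts and the ΔPeak1 libraries 5.51 and 6.45, so the groups did not overlap. The ΔPeak2 libraries, which keep this site, held 24.6 and 19.2. The log2 fold change of ΔPeak1 against control was −2.20 (SE 0.19, from the spread between libraries), with an adjusted p of 0.00604 in the edgeR quasi-likelihood F test over all features. The direct test between ΔPeak1 and ΔPeak2 gave a log2 difference of −1.87 and an adjusted p of 0.0157. F52D4.1 reads did not disappear: 26.2 and 30.8 estimated counts were assigned to it in the ΔPeak1 libraries. Those counts were not whole numbers, and whether they stem from other places in the genome was not tested. The adjusted p rose to 0.0718 when the 4 libraries were fitted alone, to 0.148 without control replicate 1 and to 0.300 without control replicate 2. Without ΔPeak2 replicate 1 or 2 it was 0.0687 and 0.0635. The separate depletion experiment of the series used other strains, all treated with auxin. Its controls carried mex-5p::tir1, which lets auxin degrade tagged proteins in the germ line. Depleted animals also carried gfp::aid::attf-6, and the paper reports germline atrophy in them. There F52D4.1 stood at 37.8 and 74.0 normalised counts in the control libraries and at 9.81 and 13.7 in the ATTF-6-depleted libraries. The cause of this difference was not tested.

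Of the type I piRNA loci nearest to the deletion, none passed the test. The annotation holds 6 such loci within 1 kb, 5 of them had a count, and 4 passed the filter on low values, which kept features with a mean of at least 0.5 normalised counts over the 6 libraries of the experiment. 21ur-370, on the plus strand 46 nt beyond the interval, is the locus whose promoter region the deletion reaches, since 55 of the 100 nt upstream of its 5′ end are gone. It held 3.54 and 7.01 normalised counts in control and 5.26 and 2.93 in ΔPeak1, with overlapping groups (log2 fold change −0.34, SE 0.58, adjusted edgeR p 0.959). 21ur-5887, on the minus strand at 75 nt, held 1.18 and 3.51 in control and 1.47 and 0.628 in ΔPeak1. 21ur-8250, on the minus strand at 224 nt, held 0.983 and 1.00 in control and 2.52 and 0.419 in ΔPeak1. 21ur-6874, 880 nt away on the other side, held 1.38 and 1.25 in control and 3.57 and 1.26 in ΔPeak1. At these levels, between 0.419 and 7.01 normalised counts, 3 counts correspond to 0.590 to 0.751 normalised counts in the 4 libraries, so these values rest on few counts. The fifth locus, 21ur-5859, stayed below the filter with 0.197 and 0.751 in control and 0 and 0.209 in ΔPeak1.

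Within 5 kb, 56 type I loci were listed and 43 were tested. None passed the threshold, and 2 of them had an unadjusted p under 0.05, both with lower values in ΔPeak1. 21ur-4565, 3272 nt away, held 5.70 and 7.01 in control and 3.36 and 3.14 in ΔPeak1, and 21ur-3752, 4920 nt away, held 1.77 and 1.75 against 0.631 and 0.419. The ΔPeak2 libraries held 2.91 and 3.92 for the first and 0.224 and 0.218 for the second, so both loci were also low in the line that keeps peak 1. The most abundant locus in the window, 21ur-11485, at 1863 nt, held 410 and 396 in control and 510.4 and 338 in ΔPeak1, which overlap. 7 loci had a control mean of at least 50 normalised counts, and their log2 fold changes ran from −0.50 to 0.07. Values overlapped between the groups at 26 of the 43 loci, were lower in both ΔPeak1 libraries at 12 and higher in both at 5. Groups that did not overlap thus made up 39.5% of these loci, beside 26.4% of all tested type I loci and 33.9% of all tested features. In this window 22 of the 43 loci have a same-strand neighbour that starts within 3 nt, so the counts of neighbours may share reads. The neighbours 21ur-14569 and 21ur-3087 held the same values, 5.50 and 4.51 in control and 4.31 and 2.93 in ΔPeak1. The 43 loci are therefore not all separate observations.

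**Figure D1:**
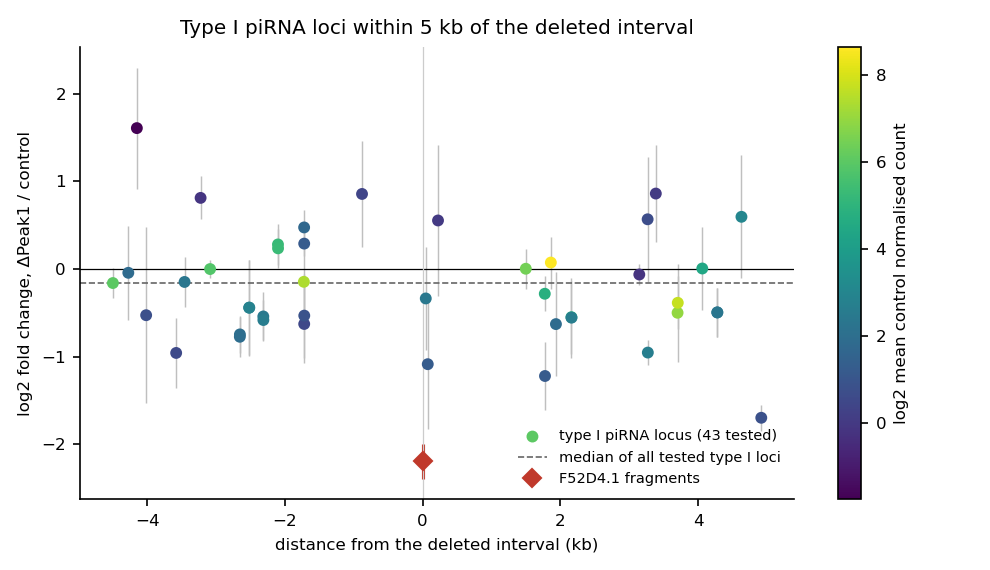
Log2 fold change of ΔPeak1 against control (vertical axis) for the 43 tested type I piRNA loci within 5 kb of the deleted interval, by their distance from it in kb (horizontal axis). Bars are SE from 2 libraries a group, colour is the log2 mean control normalised count, the dashed line is the median of all tested type I loci (−0.16) and the red diamond is F52D4.1 (−2.20); the 7 loci with a control mean of at least 50 lie between −0.50 and 0.07.

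The median log2 fold change was −0.34 within 5 kb, against −0.16 for all 8734 tested type I loci. Wider windows gave −0.23 within 10 kb (66 loci), −0.21 within 25 kb (132), −0.16 within 50 kb (216), −0.19 within 100 kb (323) and −0.18 within 500 kb (1106). The share of loci with a negative value was 65.1% within 5 kb and 66.4% over all type I loci. The 4 loci within 1 kb had a median of 0.11, with 2 values above and 2 below 0. The median within 5 kb moved with single libraries, as did that of all type I loci, which stood at −0.48 when ΔPeak1 replicate 1 was left out and at 0.08 when replicate 2 was. Without ΔPeak1 replicate 1 it was −0.77 over the loci tested in that fit, or −0.66 over those of them among the 43 loci, without ΔPeak1 replicate 2 it was 0.03, without control replicate 1 it was −0.07, and among the 16 loci with a mean of at least 5 normalised counts it was −0.15. The summed normalised counts of the 56 loci were 1468 and 1283 in control, 1428 and 1116 in ΔPeak1 and 1199 and 1399 in ΔPeak2, and the groups overlap. The 3 type I capped small RNA (csRNA) features tested in this window, which are short capped transcripts that start 2 nt upstream of a piRNA, did not pass either. These libraries were not enriched for capped RNA.

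Genes beside the interval had few siRNAs. tlp-1 siRNAs were at 0.786 and 1.25 normalised counts in control and 1.89 and 1.89 in ΔPeak1 (edgeR adjusted p 0.945), and C47A4.1 siRNAs at 0.786 and 1.25 against 0.631 and 2.09. Apart from type I loci, 9 features within 50 kb were tested. F52D4.1 was the 1 feature among them that passed. The others included siRNAs of nyn-1, which encodes an RNA-binding nuclease-like protein of the RNA interference machinery, with a log2 fold change of −0.13 and an adjusted p of 0.953. 2 further features within 250 kb passed and both are siRNA targets: B0513.4, 170675 nt beyond the interval, rose, and afmd-2, 195861 nt before it, fell. Over chromosome IV, 6 of 1980 tested siRNA features passed (0.303%), beside 41 of 12163 among all siRNA features (0.337%). With the 4 libraries fitted alone the adjusted edgeR p was 0.00879 for B0513.4 and 0.152 for afmd-2.

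Across all classes, 47 of 31462 tested features passed an adjusted p of 0.05, which is 0.149%. Of these, 20 were higher in ΔPeak1 (0.0636% of those tested) and 27 were lower (0.0858%). They were 41 siRNA features, 5 ncRNA fragment features and 1 transposon. In all 47 the control and ΔPeak1 libraries did not overlap, as was the case at 33.9% of all tested features. The log2 changes ran from 0.66 to 3.21 in size. The number of calls depended on the libraries: it was 11 without control replicate 1, 6 without control replicate 2, 148 without ΔPeak1 replicate 1, 201 without ΔPeak1 replicate 2, and 24 without either ΔPeak2 replicate. All 47 kept their direction in each of these fits, and with the 4 libraries fitted alone 26 of them passed. 6 of them passed in every one: the siRNAs of cdk-14, C09G5.7, hlh-30, nlp-40 and tln-1, which fell, and of T10B11.5, which rose.

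**Figure D2:**
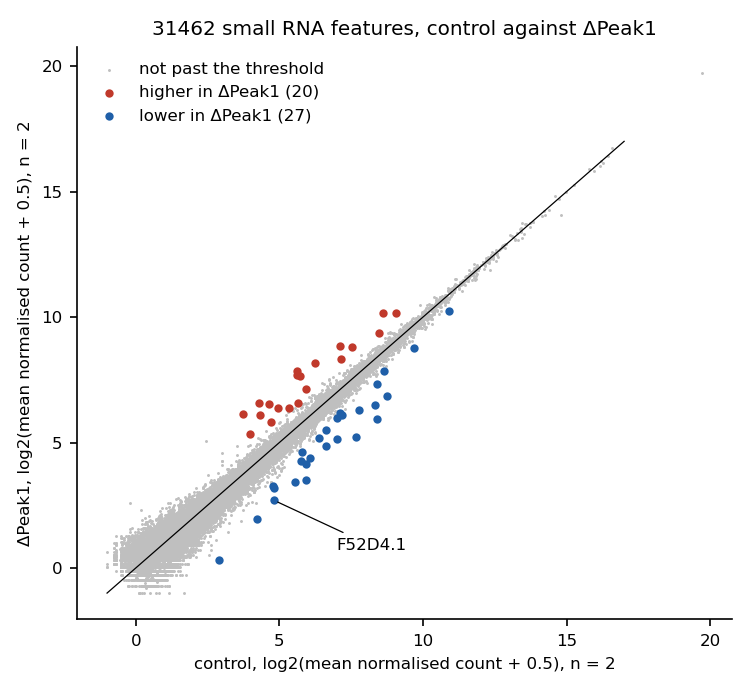
Mean normalised count of each of the 31462 tested features in control (horizontal axis) and ΔPeak1 (vertical axis), both as log2 after adding 0.5, n = 2 libraries each. Red points are the 20 features higher and blue points the 27 lower in ΔPeak1 at an adjusted p under 0.05, and the line marks equal values.

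The largest falls were siRNAs at protein-coding genes. siRNAs of cdk-14, a gene of the cyclin-dependent kinase family, held 341 and 328 normalised counts in control and 57.6 and 62.2 in ΔPeak1 (log2 fold change −2.48, SE 0.06, edgeR adjusted p 5.6e-05). C09G5.7 siRNAs held 210.3 and 196 in control and 39.5 and 33.9 in ΔPeak1 (−2.47, SE 0.12). In both genes each ΔPeak1 library lay far below each control library. For C09G5.7 the ΔPeak2 libraries lay between them, at 108 and 107. For cdk-14 they held 94.4 and 89.2, nearer to ΔPeak1 than to control. The direct edgeR test of ΔPeak1 against ΔPeak2 did not pass for cdk-14 (log2 −0.62, adjusted p 0.165). hlh-30 encodes the worm orthologue of the autophagy regulator TFEB. Its siRNAs held 428 and 431 in control and 111 and 116 in ΔPeak1 (−1.91, SE 0.03), with 284 and 269 in ΔPeak2. siRNAs of tln-1, the talin gene whose product links integrins to actin, held 331 and 316 in control and 92.1 and 86.1 in ΔPeak1 (−1.86, SE 0.06). The ΔPeak2 libraries held 193 and 209 for tln-1, between the 2 groups. siRNAs of nlp-40, which encodes a neuropeptide released from the intestine during the defecation cycle, held 127 and 126 in control and 35.5 and 34.3 in ΔPeak1 (−1.86, SE 0.02).

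Of the scarcer falls, siRNAs of rgs-4, a regulator of G protein signalling, held 57.2 and 62.9 in control and 7.36 and 14.5 in ΔPeak1 (log2 fold change −2.46, SE 0.47). siRNAs of nas-30, an astacin-type metalloprotease gene, held 14.7 and 21.3 in control and 3.36 and 3.35 in ΔPeak1 (−2.41, SE 0.26). Both passed the main edgeR test (adjusted p 0.00351 and 0.0196), but with the 4 libraries fitted alone they were at 0.0963 and 0.143. ZC190.7 and ZC190.8 lie 88 nt apart on the minus strand of chromosome V. ZC190.8 siRNAs held 49.9 and 41.3 in control and 11.98 and 8.80 in ΔPeak1 (−2.13, SE 0.25). ZC190.7 siRNAs rested on few reads, 39 and 25 counts in control and 2 and 5 in ΔPeak1, and their adjusted edgeR p was 0.0354, or 0.255 with the 4 libraries alone.

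The 17 lower features outside these 10 had log2 fold changes from −1.79 to −0.66. 2 of them, chosen after their values were seen, are the siRNAs of klf-1, which encodes a Krüppel-like transcription factor, and of cdh-1, which encodes a cadherin. klf-1 siRNAs held 824 and 803 in control, 438 and 420 in ΔPeak1 and 976 and 963 in ΔPeak2. cdh-1 siRNAs held 211 and 221 in control, 78.4 and 75.8 in ΔPeak1 and 91.7 and 78.7 in ΔPeak2. So the ΔPeak2 libraries lay above control for klf-1 and near ΔPeak1 for cdh-1. With the 4 libraries alone the adjusted edgeR p was 0.0553 for klf-1 and 0.0128 for cdh-1. Without control replicate 1 or 2 neither passed.

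Among the rises, B0513.4 siRNAs held 13.4 and 12.02 normalised counts in control and 74.6 and 64.1 in ΔPeak1 (log2 fold change 2.44, SE 0.13, edgeR adjusted p 5.9e-04). C02F5.10 siRNAs held 18.5 and 20.0 in control and 99.96 and 89.1 in ΔPeak1 (2.30, SE 0.10). T10B11.5 siRNAs held 51.1 and 46.3 in control and 226 and 236 in ΔPeak1 (2.24, SE 0.08). For all 3 the ΔPeak2 libraries lay below both control libraries, that is, on the other side of control from ΔPeak1. siRNAs of W01A11.7 rose from 50.5 and 45.8 to 211 and 197 (2.08, SE 0.08), and those of moc-2, a molybdenum cofactor synthesis gene that lies 359 nt from it on the same strand, rose from 16.9 and 13.5 to 39.7 and 40.004 (1.38, SE 0.16). The moc-2 call (adjusted edgeR p 0.0316) was lost with the 4 libraries alone (0.178), without control replicate 1 (0.544) or 2 (0.834) and without ΔPeak2 replicate 1 (0.184) or 2 (0.181).

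arl-13 encodes a small GTPase of cilia. Its siRNAs held 77.2 and 71.1 in control and 312 and 262 in ΔPeak1 (log2 fold change 1.95, SE 0.14). Y44E3A.1 siRNAs held 54.1 and 50.6 in control and 190 and 210.1 in ΔPeak1 (1.93, SE 0.08). siRNAs of haf-9, a half-type ABC transporter gene that acts in lysosome-related organelles of the intestine, held 18.9 and 20.0 in control and 69.2 and 65.8 in ΔPeak1 (1.79, SE 0.06). Of these genes arl-13 was as high in ΔPeak2, whereas Y44E3A.1 in ΔPeak2 lay below control. Y54E2A.4 siRNAs were the most abundant among the 10 largest rises, at 389 and 388 in control and 1154 and 1112 in ΔPeak1 (1.54, SE 0.03), with 772 and 695 in ΔPeak2. F22H10.10, a noncoding RNA gene and the 1 call on the X chromosome, held 140 and 134 in control, 454 and 473 in ΔPeak1 and 139 and 126 in ΔPeak2 (1.76, SE 0.04).

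**Figure D3:**
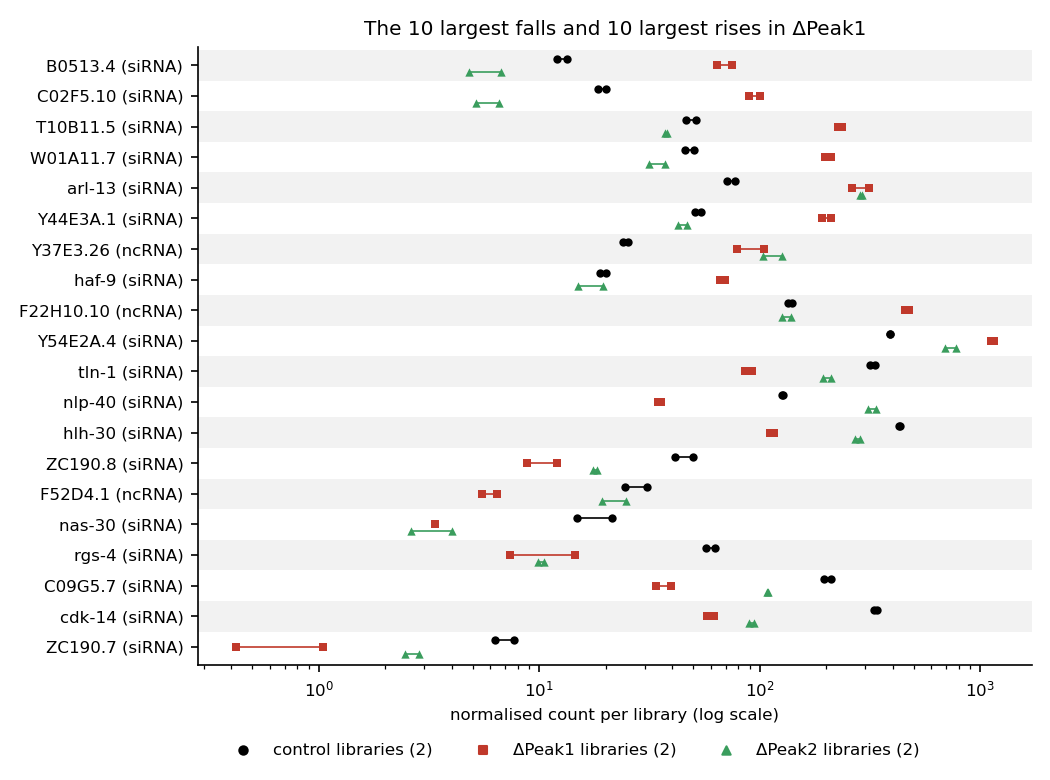
Normalised count of each library (horizontal log axis) for the 10 features that fell most and the 10 that rose most among the calls (vertical axis), in control (black circles), ΔPeak1 (red squares) and ΔPeak2 (green triangles). Each symbol is 1 library and lines join the 2 libraries of a group; ΔPeak2 libraries lie beside ΔPeak1 for arl-13, Y37E3.26, nas-30 and rgs-4 and beside control for F22H10.10 and haf-9.

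Some calls cannot be counted apart. F56F11.7, C41G7.13 and Y37E3.26 are noncoding RNA genes that lie inside klf-1, irx-1 and arl-13, each on the strand opposite to its host gene. A read antisense to the host gene is sense to the noncoding RNA gene, and both members of each pair moved the same way: F56F11.7 held 105 and 88.4 in control and 30.2 and 26.2 in ΔPeak1, C41G7.13 held 77.6 and 86.2 against 37.6 and 33.9, and Y37E3.26 held 24.0 and 25.2 against 104 and 78.5. The reads of each pair cannot be told apart here. How the tables treat a read on overlapping features was not stated. In all, 34 of the 47 called features overlap another annotated gene, and 36 had whole counts in all 6 libraries of the experiment.

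The tables attach labels to siRNA target genes, such as WAGO, CSR, PRG1 and ALG, which they do not define. Genes labelled WAGO were 2542 of the 12163 siRNA features tested (20.9%) and 28 of the 41 siRNA calls (68.3%). Genes labelled CSR were 3965 of those tested (32.6%) and 1 of the calls, pqn-80, which carries the WAGO label too. Directions differed with the PRG1 label. Of 1323 tested genes labelled PRG1, 12 fell and 1 rose, and the gene that rose was F01F1.3. Of 1587 genes labelled WAGO but not PRG1, 11 rose and 5 fell. With TMM scaling, which equalises the bulk of the features between libraries, PRG1 genes split into 5 rises and 12 falls and WAGO genes without PRG1 into 12 and 9. With the 4 libraries alone the splits were 0 and 7 and 8 and 1. The median log2 fold change was 0.04 over all tested PRG1 genes, 0.03 over WAGO genes and −0.03 over all tested features. Whether the split between the labels exceeds chance was not tested.

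Over all siRNA features, 41 of 12163 were called (0.337%). By germline-sex label, siRNA calls of genes labelled Spermatogenic were 8 rises and 5 falls among 1354 tested, those labelled Gender_neutral 8 rises and 11 falls among 5368, and those labelled Oogenic 1 rise, pvf-1, among 1640. pvf-1 encodes a growth factor of the PDGF and VEGF family, and its siRNAs rose from 541 and 523 to 1100 and 1166. Chromosome I held 16 of the 41 siRNA calls, or 0.723% of its 2214 tested siRNA features, beside 0.337% of all siRNA features. The other autosomes had between 0.222% and 0.333%, and chromosome X had 0 of 1404 siRNA features called by edgeR. ATTF-6 itself is encoded on chromosome I, and both groups carry the same tagged allele. Whether the place of this gene bears on these calls was not tested.

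26G siRNAs are longer siRNAs that begin with G and are made by another polymerase complex, with the Argonautes ERGO-1 or ALG-3 and ALG-4. The tables count them apart. Of the 41 genes with called siRNAs, 37 had a tested 26G feature, and 36 of these moved in the same direction as the siRNAs. None passed the threshold on its own (lowest adjusted edgeR p 0.105), though 25 of the 36 had an unadjusted p under 0.05. For hlh-30, 26G siRNAs held 8.06 and 9.52 in control and 2.31 and 2.09 in ΔPeak1. For Y54E2A.4 they held 9.43 and 5.76 against 28.0 and 19.3, and for T10B11.5 0 and 0.751 against 5.89 and 5.03. In control replicate 2 a value of 0.751 is 3 counts. Other 26G features were as scarce, such as that of haf-9 (0 and 0.501 against 0.420 and 1.89), so their direction rests on few counts. The exception was F13H8.8, with siRNAs that rose from 27.7 and 23.8 to 51.1 and 60.3 and 26G siRNAs at 0.393 and 0.501 against 0.631 and 0.209. Whether a read can enter both classes was not stated.

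**Figure D4:**
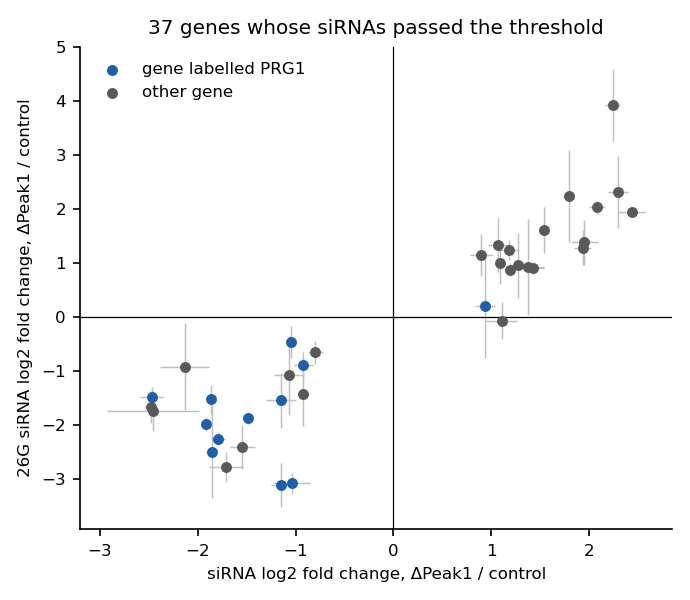
Log2 fold change of ΔPeak1 against control for siRNAs (horizontal axis) and 26G siRNAs (vertical axis) at the 37 genes with called siRNAs and a tested 26G feature, with SE bars from 2 libraries a group. Blue points are genes labelled PRG1, grey points are other genes; 36 of the 37 have the same sign in both.

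A direct test of ΔPeak1 against ΔPeak2 asked which changes differ between these edited lines. It called 62 of 31462 features (0.197%). Of the 47 features that differed between ΔPeak1 and control, 25 also differed from ΔPeak2, all in the same direction: 13 that were higher and 12 that were lower in ΔPeak1. The largest differences were at C02F5.10 (log2 4.01, edgeR adjusted p 1.3e-05), B0513.4 (3.59) and nlp-40 (−3.21). nlp-40 siRNAs were at 337 and 310 in ΔPeak2, above control, while ΔPeak1 lay below it. The other 22 features did not pass this test. arl-13 siRNAs, at 291 and 283 in ΔPeak2, differed from ΔPeak1 by 0.00 on the log2 scale, rgs-4 siRNAs (10.5 and 9.81) by 0.10, nas-30 siRNAs (4.03 and 2.62) by 0.02 and cdh-1 siRNAs by −0.14. In the same fit ΔPeak2, which keeps peak 1, was also set against control. Many of the 47 calls passed there in the same direction. Among them were siRNAs of cdk-14 (log2 −1.87, edgeR adjusted p 2.3e-04), rgs-4 (−2.56, 0.00449), cdh-1 (−1.34, 0.00226) and arl-13 (1.95, 2.8e-04). So did siRNAs of C09G5.7 (log2 −0.91, edgeR adjusted p 0.0232), hlh-30 (−0.64, 0.0492) and tln-1 (−0.69, 0.0469), with smaller falls than in ΔPeak1. nlp-40 (1.35, 9.8e-04) and C02F5.10 (−1.71, 0.0148) passed in the opposite direction. Others, such as F22H10.10 (−0.05, 0.937), did not pass. These comparisons share libraries.

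Class sums of type I piRNAs, siRNAs and miRNAs overlapped between ΔPeak1 and control, and those of some smaller classes did not. Summed normalised counts of type I piRNAs were 427780 and 374561 in control and 405226 and 334034 in ΔPeak1, a log2 ratio of the means of −0.12, and the groups overlap. With 2 libraries against 2, the exact two-sided permutation test cannot go below p = 0.333, and here it gave 0.667. Of the 8734 tested type I loci, 511 had an unadjusted p under 0.05 with a lower value and 31 with a higher one, and 0 passed after adjustment in edgeR or DESeq2 with the filter on low values. Without that filter edgeR called 44 type I loci, 6 higher and 38 lower. This tilt depended on the ΔPeak1 library. Without replicate 2 the median over type I loci was 0.08 and 71 loci were called higher and 32 lower. Without ΔPeak1 replicate 1 the median was −0.48 and 49 loci were called, all lower. A single library stands for ΔPeak1 in each of these fits and its spread is taken from the other groups.

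Cluster II, the chromosome IV region that holds the deletion, summed to 404295 and 355575 in control and 382631 and 316220 in ΔPeak1, and cluster I to 23173 and 18708 against 22331 and 17585. Their log2 ratios were −0.12 and −0.07. The 6 type I piRNAs that the study examined one by one had log2 fold changes from −0.32 to 0.00, and none passed. 21ur-3442, the most abundant, held 2224 and 1619 in control and 1409 and 1939 in ΔPeak1. 21ur-5665 was the lowest in fold change, with 418 and 423 against 355 and 319 (adjusted edgeR p 0.945). Type I loci labelled Oogenic summed to 149123 and 130823 against 143613 and 115815, and those labelled Spermatogenic to 40224 and 34310 against 35149 and 29694, both with overlap.

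Type II piRNAs, which are transcribed outside the clusters, summed to 25618 and 21366 in control and 20248 and 20937 in ΔPeak1 (log2 ratio −0.19). The groups do not overlap, with an exact permutation p of 0.333, but 2 features, named let-7a and 21ur.type2-1, held most of this sum. The other 5576 summed to 3101 and 2851 in control and 3058 and 2361 in ΔPeak1, which overlap. siRNAs summed to 1244689 and 1269117 against 1307050 and 1260207 (0.03), 26G siRNAs to 33960 and 38175 against 39818 and 38933 (0.13, not overlapping), and miRNAs to 1485365 and 1432722 against 1427416 and 1504157 (0.01). The siRNA and miRNA sums overlapped between the groups. tRNA, snRNA, snoRNA and ncRNA fragments also overlapped. Type II csRNAs did not, with 3063 and 3073 in control and 3344 and 3202 in ΔPeak1 (log2 ratio 0.09). The 6 scarce features classed as risiRNA did not either, with 7.27 and 8.02 against 5.05 and 5.66 (−0.51). edgeR called 0 of 755 type II piRNA, 219 miRNA, 5978 26G siRNA, 619 tRNA fragment, 214 snoRNA fragment and 118 snRNA fragment features. In the same order 33, 15, 275, 17, 14 and 4 of them had an unadjusted p under 0.05, and DESeq2 called 1 26G feature and 0 miRNAs. TMM scaling also gave 1 26G call, and edgeR without the filter on low values called 7 26G features and 5 miRNAs. Of the 17 tRNA fragment features, 16 were lower in ΔPeak1, and the median over all 619 was −0.23, with 460 of them negative. That median moved with the control library: it was −0.013 without control replicate 2 and −0.40 without control replicate 1. The summed tRNA fragments went the other way, with a log2 ratio of 0.07.

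**Figure D5:**
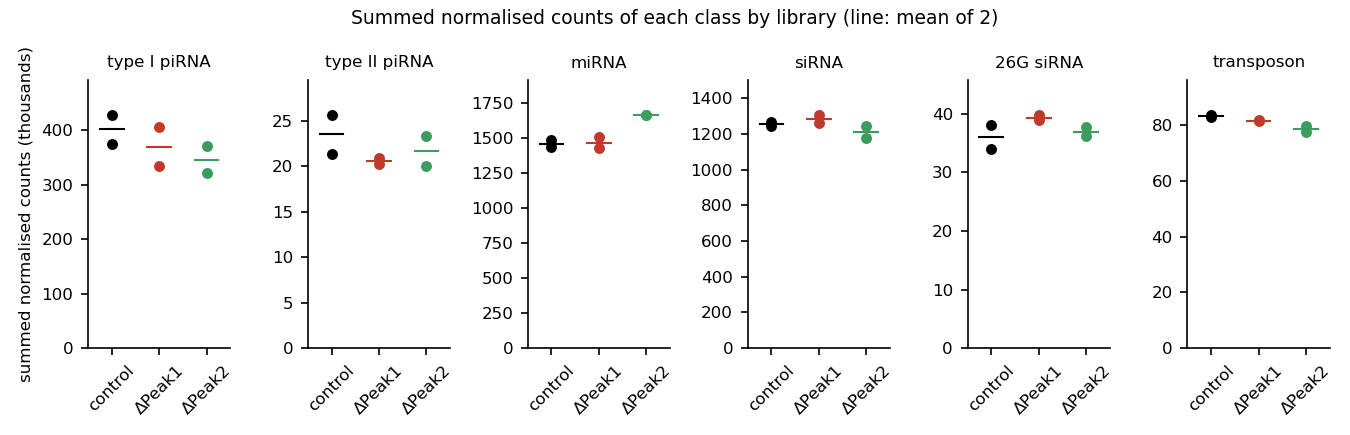
Summed normalised counts (vertical axes, from 0, in units of 1000) of 6 small RNA classes in the control, ΔPeak1 and ΔPeak2 libraries; each point is 1 library and the line is the mean of 2. Type I piRNA, miRNA and siRNA points of control and ΔPeak1 overlap, with type I sums of 374561 to 427780 in control and 334034 to 405226 in ΔPeak1.

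The miRNA nearest to the threshold was miR-81-3p, at 30387 and 26656 in control, 16586 and 17913 in ΔPeak1 and 11724 and 16667 in ΔPeak2 (log2 fold change −0.73, SE 0.11, adjusted edgeR p 0.169). Most markers of cell types overlapped between the groups. The miR-35 to miR-42 family of the germ line and embryo summed, over its 7 matched 3p strands, to 147179 and 188775 in control and 145168 and 206491 in ΔPeak1. The glial miR-228-5p held 1051 and 1425 against 1383 and 1353, and the neuronal lsy-6-3p 77.2 and 81.4 against 97.5 and 72.9. Among the let-7 family, which times larval development in the hypodermis, let-7-5p held 10583 and 8459 against 7640 and 9848. miR-48-5p held 18982 and 19744 against 15646 and 18787, which did not overlap. miR-84-5p went the other way in its mean, with 11692 and 12762 against 13871.5 and 12754. miR-241-5p held 971 and 980 against 482 and 1024. The last 2 of these overlapped. None of 12 tested miR-35 family and 7 tested let-7 family features passed. Sperm-linked siRNAs at msp genes were near 0, at 2.56 and 4.01 summed against 3.36 and 1.89. In whole animals, fewer cells of a type and less small RNA per cell cannot be told apart.

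siRNAs at genes of the small RNA pathways did not pass either. Of 13 listed piRNA transcription genes, all 13 were tested and 0 were called, with a median log2 fold change of −0.04. attf-6 siRNAs held 212 and 218 in control and 200.3 and 198 in ΔPeak1, and prde-1 siRNAs, against a gene that piRNA transcription needs, 54.1 and 44.6 against 55.7 and 61.2. Of 18 tested Argonaute genes, 13 piRNA processing genes, 11 P granule genes, 19 RdRP and mutator genes and 25 histone genes, 0 were called by edgeR, and medians were −0.14, 0.01, −0.08, −0.06 and 0.15. At an unadjusted p under 0.05 there were 2 P granule genes, meg-4 and glh-2, and 1 histone gene, his-59. meg-4 encodes an intrinsically disordered P granule protein, and its siRNAs held 125 and 123 in control, 90.8 and 79.6 in ΔPeak1 and 64.5 and 67.8 in ΔPeak2 (adjusted edgeR p 0.360). Of 30 tested spliced leader fragment features edgeR called 0, also at an unadjusted p under 0.05, with a median of 0.09.

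1 transposon passed. Small RNAs at TURMOIL2, a DNA transposon, held 1924 and 1873 normalised counts in control and 1256 and 1141 in ΔPeak1 (log2 fold change −0.66, SE 0.07, edgeR adjusted p 0.0354), with 2038 and 1928 in ΔPeak2. ΔPeak1 therefore lay below both other groups, and the direct difference from ΔPeak2 was −0.73 (adjusted p 0.0152). The call against control was lost with miRNA scaling (adjusted edgeR p 0.0874), with the 4 libraries alone (0.248), without control replicate 1 (0.824) or 2 (0.695) and without ΔPeak2 replicate 1 (0.258) or 2 (0.242). Of the other 129 transposons tested, none passed. CER1, a gypsy-type retrotransposon, held 199.7 and 202 against 134 and 114, and MIRAGE1 652 and 643 against 443 and 449, both with an adjusted edgeR p of at least 0.109. Over all transposons the sums were 83715 and 82930 in control and 81855 and 81433 in ΔPeak1, which do not overlap (log2 ratio −0.03, and 0.01 with TMM scaling).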

How the data were processed

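The authors trimmed reads with Trim Galore, mapped them with Bowtie without mismatches to the WormBase WS279 genome, and assigned them to features. The authors deposited estimated counts, reads assigned to each feature, some of them fractional. Reads of piRNA loci had to map uniquely in sense orientation. The deposited normalised signal is the count divided by 1 constant per library (3992305 to 5087734 in the 6 libraries of the fit). Summed counts were 3.87 to 3.95 times that constant, so which reads it covers was not settled. Summed counts per library of the comparison ran from 15454564 to 19949905. For these libraries the treatment label reads None, although a protocol text shared by the series mentions auxin.

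Counts were rounded and fitted in edgeR 4.0.16 (R 4.3.3) over the control, ΔPeak1 and ΔPeak2 libraries, with the authors' constant as library size and no other scaling. Features with a mean of at least 0.5 normalised counts were kept and p-values were adjusted over all of them by Benjamini-Hochberg at 0.05. SE come from log2(normalised count + 0.5). Positions are from Ensembl 115 (WBcel235). The fit was tested on simulated data. Alternatives were TMM and miRNA scaling, DESeq2 1.42.0 with its own scaling and test, other filters, a replicate block, fewer groups and leaving out each library. Named features were F52D4.1, the 10 largest rises and 10 largest falls among non-overlapping calls, the loci within 1 kb, the neighbouring protein-coding genes and the 6 assayed piRNAs, and others named were chosen after their values were seen. Members and lists were chosen with earlier results of these data known. Intervals and floors cover counting error only. miR-1, miR-60, miR-124 and lin-4 were not analysed here.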

Additional observations from a re-analysis of the deposited data

Results flagged for a closer look

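Features that differed between the peak 1 and peak 2 deletion lines stood out because the difference itself was tested in the fit: 62 features passed, 41 higher and 21 lower in ΔPeak1. Of the features that differed between ΔPeak1 and control, 25 were among those that also differed from ΔPeak2.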

How the results depend on the processing

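The count of 47 calls became 85 with DESeq2, 186 without the filter on low values and 26 with the 4 libraries alone, and ran from 6 to 201 when 1 library was left out. It stayed within 1.5 times with TMM (60), miRNA scaling (43) and the stricter filter (44). The 62 features that differed between ΔPeak1 and ΔPeak2 became 170 without the filter and 37 with the 4 libraries of those groups alone, and ran from 24 to 152 when 1 library was left out. F52D4.1 kept its direction, at −2.20 with an adjusted p of 0.0718 with the 4 libraries alone and from −2.36 to −2.02 when 1 library was left out. Of the 20 features named by size, 14 fell short of the threshold without control replicate 2 and 9 without control replicate 1, and none turned direction.

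Summed type II piRNA ratios ran from −0.32 to −0.053 with 1 library left out, those of type II csRNAs from 0.062 to 0.12, of 26G siRNAs from 0.045 to 0.21 and of tRNA fragments from −0.068 to 0.22. Under TMM and DESeq2 size factors the siRNA ratio was 0.072 and 0.067, the type II csRNA ratio 0.13 and 0.13, and the transposon ratio 0.014 and 0.0087. Over features with whole counts only, the type II csRNA ratio was 0.17 and the tRNA fragment ratio −0.38. The cause of these shifts was not tested. The 5 kb median ran from −0.77 to 0.03 with 1 library left out.

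Replicate numbers are shared across groups but did not pair the libraries: deviations of same-numbered libraries correlated at −0.05 between control and ΔPeak1. With the replicate number as a block 32 features were called against control and 48 between ΔPeak1 and ΔPeak2. Among the features named by size, the block ended the calls of nas-30 (adjusted edgeR p 0.0810) and ZC190.7 (0.128), and beyond them those of moc-2 (0.0835) and TURMOIL2 (0.122) too.

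Depth limits the loci at the deleted site, which held few counts.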
